A study of Mus musculus with 10 samples.

Results

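Matrix metalloproteinases (MMPs) and their inhibitors were followed in single endothelial cells (ECs) from the ear skin of mice with and without an activating Pik3ca allele. The 10 genes described here, of 46517 mouse genes in the count tables, were the gelatinases Mmp2 and Mmp9, the membrane-anchored Mmp14 and Mmp15, the stromelysins Mmp3 and Mmp11, and the inhibitors Timp1, Timp2, Timp3 and Reck. They were chosen by name, with earlier results of these data known, and all 10 were found by symbol in every table. MMPs are zinc proteases that cut collagens, laminins and other parts of the extracellular matrix, and most are made as inactive proenzymes. Mmp14 encodes a protease of the cell surface that cuts collagen and, with TIMP2 as a bridge, activates the product of Mmp2. TIMPs block MMPs in the matrix, and RECK is an inhibitor anchored in the membrane. In skin vessels these enzymes are known for clearing basement membrane ahead of sprouting ECs.

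The mutant group was 5 mice of the strain Pik3caH1047R;Cdh5-CreERT2 that carried Cre (Cre+). These mice received 4-hydroxytamoxifen (4-OHT) on the ears at 3 weeks of age and were taken at 5 weeks. Of the 2 controls, both also 5 weeks old, control 1 was an untreated C57BL/6J mouse, while control 2 was a Cre- mouse of the mutant strain given 4-OHT. A Cre- mouse labelled as control 3 was not analysed here. The Cdh5 promoter drives Cre in blood and lymphatic ECs alike, and the allele is expressed from the Rosa26 locus once recombined. Cells with and without recombination were not separated in the sums used here. Live cells negative for CD45, CD11b and Ter119 were sorted by Podoplanin and CD31 into 9 plates of 384 wells, and full-length libraries were made by Smart-Seq2.

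Of 3456 wells, 3248 passed the filters, and plates held between 99738886 and 151102969 reads in genes. Every plate was labelled as sorted lymphatic ECs (LECs), while the paper's methods describe the sorting of both LECs and blood ECs (BECs). LECs made up 358 control and 1283 mutant cells, BECs made up 316 and 1174, and 50 and 67 cells were neither. A cell was a LEC when Prox1, Flt4 and Mmrn1 together reached 300 CPM (read counts scaled to library size) and exceeded Flt1, Emcn and Podxl, and a BEC when the reverse held. The 6 LEC markers, 3 of which the rule used, summed to between 6376 and 9928 CPM in LECs and between 122 and 409 CPM in BECs. The 6 BEC markers were Flt1, Emcn, Podxl, Pecam1, Cdh5 and Ptprb. They summed to between 5786 and 6899 CPM in BECs and between 2159 and 2734 CPM in LECs. Pecam1 and Cdh5 are active in lymphatic ECs too, so the sum in LECs does not measure BEC transcripts there. Reads were summed per mouse and class, and the mouse was the replicate throughout. By the plate numbers in the column names, mutant mice 1 to 4 were on one series of plates and mutant 5 and both controls on another, so series and genotype largely overlap.

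The regulatory sequence next to 2 members is shown first because these genes differ in how widely they were read: Mmp14 was read in most LECs and Mmp3 in almost none. Both are the 250 bases before the start of transcription in RefSeq on GRCm38.p6, written 5′ to 3′ on the strand of the gene, with matches to searched motifs in capitals. Mmp14 lies at chr14:54431348-54431597 on the plus strand and Mmp3 at chr9:7445572-7445821 on the plus strand.
Mmp14: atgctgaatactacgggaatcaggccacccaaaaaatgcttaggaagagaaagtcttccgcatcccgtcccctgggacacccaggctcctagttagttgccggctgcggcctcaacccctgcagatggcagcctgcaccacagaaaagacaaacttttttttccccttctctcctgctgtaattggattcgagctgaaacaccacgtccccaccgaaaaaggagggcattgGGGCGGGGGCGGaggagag
Mmp3: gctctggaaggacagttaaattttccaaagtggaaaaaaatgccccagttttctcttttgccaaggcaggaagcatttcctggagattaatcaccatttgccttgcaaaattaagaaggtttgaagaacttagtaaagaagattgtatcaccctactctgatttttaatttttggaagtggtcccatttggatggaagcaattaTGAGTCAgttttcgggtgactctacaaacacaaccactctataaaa
Motifs searched on both strands were the GC box GGGCGG, the AP-1 core TGANTCA and the forkhead core TGTTTAC. The Mmp14 window held 2 GC boxes, close to the start, and no match to the other motifs. In the Mmp3 window the only match was 1 AP-1 core, a motif present in 6.75% of 32851 promoter windows. GC boxes occurred in 32.7% of windows and forkhead cores in 3.17%. Among the 8 members with an entry, all but Mmp3 held at least 1 GC box, and none held a forkhead core. Mmp2 and Mmp9 had no entry. A link between these motifs and how widely a gene was read was not tested, and sparsely read members such as Reck and Mmp11 also held GC boxes.

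In levels per transcript length (FPKM), 4 genes had the highest means in both kinds of EC: Mmp2, Mmp14, Timp2 and Timp3. In control BECs, however, Mmp14 (17.5 and 34.1 FPKM) overlapped Mmp15 (14.9 and 32.8 FPKM). In mutant LECs the mean was 347 ± 41.4 FPKM for Timp2, 263 ± 38.1 for Timp3, 174 ± 33.2 for Mmp2 and 159 ± 29.3 for Mmp14 (SD, n = 5). Timp2 and Timp3 overlapped across mice, as did Mmp2 and Mmp14. Timp1, a secreted inhibitor, followed at 39.1 ± 7.12 FPKM, then Mmp11 at 7.82 ± 2.64, Reck at 5.18 ± 2.36 and Mmp15 at between 1.19 and 3.85 in single mice (SD, n = 5). In mutant BECs the order changed, and Mmp2 came first at 503 ± 44.1 FPKM, above Timp2 at 148 ± 26.2, Timp3 at 103 ± 13.5 and Mmp14 at 69.3 ± 4.26 (SD, n = 5). These 4 genes kept apart across the mutant mice, with no range overlapping the next. Timp1 in mutant BECs stood at 37.1 ± 11.9 FPKM and Mmp15 at 26.3 ± 8.95 (SD, n = 5), with ranges that overlapped.

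Of the members tested, Mmp2 differed most between mutant and control BECs. It encodes gelatinase A, which cuts type IV collagen of the basement membrane, and lies on chromosome 8 at 92827291 to 92853420 (GRCm38). In BECs Mmp2 stood at 209.9 and 172 CPM in controls 1 and 2 and at 1698, 1504, 1629.9, 1447 and 1369 CPM in mutants 1 to 5. Every mutant was thus above both controls, with no overlap. The fitted log2 fold change was 2.95 ± 0.15 (SE), a 7.73-fold difference, with an adjusted p of 0.000534 in edgeR's quasi-likelihood test. In LECs the same gene stood at 224 and 217 CPM in the controls and at 480.3, 399.5, 608, 499 and 649 CPM in the mutants. Again no mutant overlapped a control, and the log2 fold change was 1.23 ± 0.20 (SE; edgeR adjusted p = 0.0241). The call in LECs was lost without control 1, control 2, mutant 3 or mutant 4, at adjusted p between 0.0588 and 0.0784, with the log2 difference between 1.18 and 1.27. The call in LECs was also lost without cycling cells. Mutant 5 shared its series of plates with the controls, and its Mmp2 was above theirs in both classes.

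Mmp14, which encodes the membrane-bound collagenase MT1-MMP, was higher in mutants in both kinds of EC. The mix of cells within each class also differed between genotypes, as given below for cells high in Ptx3 or Apln. Its gene spans 54431612 to 54445364 on chromosome 14. In LECs it stood at 215 and 335 CPM in the controls and at 618, 537, 706, 672 and 875 CPM in the mutants. The groups did not overlap, and the log2 fold change was 1.28 ± 0.24 (SE; edgeR adjusted p = 0.0365). BECs held less of it, with 75.3 and 147 CPM in the controls and 316, 313, 292, 271 and 298 CPM in the mutants. All mutants were again higher, by a log2 fold change of 1.37 ± 0.26 (SE; edgeR adjusted p = 0.0377). The call in LECs was lost without control 1, at a log2 difference of 1.01 (adjusted p = 0.107), or without mutant 1, 3 or 4. The call in LECs was also lost without cycling cells. The call in BECs was lost without any one of the mutants, at adjusted p between 0.0521 and 0.0886.

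Timp2, whose product both inhibits MMPs and bridges proMMP2 to MT1-MMP, was the only inhibitor that rose past the threshold, and it did so in BECs. There it stood at 272 and 252 CPM in the controls and at 736, 504, 625, 527 and 499 CPM in the mutants. The lowest mutant was well above the higher control, and the log2 fold change was 1.09 ± 0.18 (SE; edgeR adjusted p = 0.0269). This call was lost without control 1, control 2, mutant 2 or mutant 3, at adjusted p between 0.0525 and 0.107. In LECs Timp2 stood at 1062 and 840.1 CPM in the controls and at 1549.6, 1401, 1431, 1209 and 1163 CPM in the mutants. These groups did not overlap either, yet the log2 difference of 0.48 ± 0.14 (SE) did not pass the test (edgeR adjusted p = 0.108).

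The remaining members did not pass the test between genotypes in either class. Timp1 in BECs stood at 6.05 and 15.9 CPM in the controls and between 24.0 and 50.0 CPM in the mutants, without overlap, at a log2 difference of 1.53 ± 0.48 (SE; edgeR adjusted p = 0.14). Mmp11, a stromelysin activated inside the cell by furin, pointed the other way in BECs, with 19.4 and 22.0 CPM in the controls against 5.03 to 18.5 CPM in the mutants (log2 difference -1.11, edgeR adjusted p = 0.239). Timp3, the inhibitor that binds to the matrix itself, stood at 1428 and 723 CPM in control BECs and between 727 and 982 CPM in mutant BECs, so the 2 controls spanned the mutants. Control 1 was also the highest mouse for Timp3 in LECs, at 3859.9 CPM, against 1792 CPM in control 2 and 1736 to 2449.5 CPM in the mutants. Mmp15 and Reck overlapped between the groups in both classes. Thus 2 of the 9 members tested in LECs and 3 of the 9 tested in BECs were called, all higher in mutants. Of all genes tested, 2.76% and 2.12% were called in either direction. The paper reports Mmp2 and Mmp14 as higher in a subset of mutant LECs of these data. The members were chosen with earlier results known, so their counts are not independent of the data. Mice of the 2 groups did not overlap for 3 members in LECs and 5 in BECs, while this held for 25.5% and 25.1% of all genes. The median log2 fold change over the tested members was 0.23 in LECs and 0.08 in BECs, beside -0.01 and 0.01 over all genes.

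**Figure D1:**
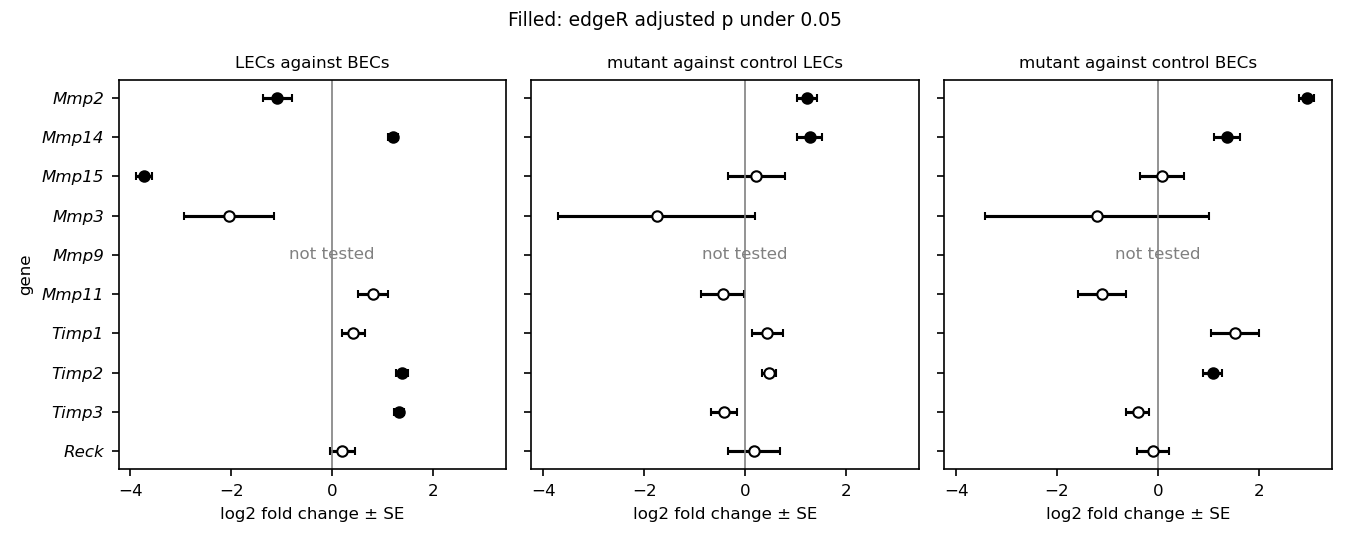
Fitted log2 fold change of each member with its standard error for LECs against BECs and for mutant against control LECs and BECs; filled points passed an edgeR adjusted p of 0.05. Mmp2 in BECs has the highest value of the genotype comparisons, at 2.95, and Mmp9 was too low to test.

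Control and mutant cells did not hold the same amount of transcripts from other cell types. Fibroblast markers (Col1a1, Col1a2, Pdgfra, Dcn, Lum and Dpt), all 6 above 0 in both controls, summed to between 577 and 808 CPM in control BECs and between 12.8 and 43.5 CPM in mutant BECs. In LECs they summed to 201 and 392 CPM in the controls and to between 15.8 and 107 CPM in the mutants. The dissociation response genes, such as Fos and Jun, summed to at least 3794 CPM in control BECs and at most 2393 CPM in mutant BECs, and cycling genes, such as Mki67, to at most 28.6 CPM in control and at least 102 CPM in mutant BECs. In LECs the same 2 lists summed to at least 2108 against at most 1651 CPM and to at most 80.0 against at least 388 CPM. The part of dissociation genes in the results was not tested. In a fit without cycling cells, no member was called between genotypes in LECs. Cells with at least 100 CPM of any list of other cell types, called marker-positive below, made up 68.2% and 92.5% of control BECs and between 39.7% and 59.7% of mutant BECs.

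Mmp2 was therefore read separately in cells below this limit. In these BECs, 12 cells of control 1 and 50 of control 2 gave 8.92 and 46.2 CPM of Mmp2, while 72 to 134 cells per mutant gave between 1461 and 1766 CPM. The gap between the groups was wider than over all BECs, with a log2 fold change of 5.77 ± 0.57 (SE; edgeR adjusted p = 0.00478). Marker-positive control BECs held 235 and 250.2 CPM of Mmp2, and the single BEC with the most Mmp2 reads in control 2 also carried 31623 CPM of fibroblast markers. The 5 cells richest in Mmp2 gave 48.9% and 67.0% of all Mmp2 reads in control BECs and between 7.87% and 14.0% in mutant BECs. In LECs below the limit Mmp2 stood at 131 and 202 CPM in the controls and between 339 and 627 CPM in the mutants (log2 fold change 1.52 ± 0.26, SE; edgeR adjusted p = 0.0319).

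Mmp14 and Timp2 lost their calls in BECs below the limit. Mmp14 there stood at 187 and 165 CPM in the controls and between 271 and 321 CPM in the mutants, at a log2 difference of 0.69 ± 0.21 (SE; edgeR adjusted p = 0.112). Timp2 stood at 63.6 and 299 CPM in the controls and between 486 and 664 CPM in the mutants (log2 difference 1.55 ± 0.46, SE; edgeR adjusted p = 0.109). Both genes still did not overlap between the groups, with as few as 12 cells behind a control value. The share of all genes without overlap was not counted below the limit. Over all BECs it was 25.1%. In LECs below the limit the log2 difference of Mmp14 was 1.03 ± 0.22 (SE; edgeR adjusted p = 0.0578).

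The share of cells that carried these transcripts moved with the sums. At least 100 CPM of Mmp2 was reached by 14.5% and 10.8% of control BECs and by between 46.6% and 65.0% of mutant BECs. In LECs the shares were 24.6% and 37.1% in the controls and between 51.9% and 72.5% in the mutants. For Mmp14 the same level was reached by 9.43% and 22.3% of control BECs and between 36.8% and 52.7% of mutant BECs. Timp2 at that level was found in 33.3% and 30.6% of control BECs and between 56.3% and 74.9% of mutant BECs, but in at least 86.9% of LECs of every mouse. No share of a mutant overlapped a control in these comparisons of BECs.

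With each cell thinned to 50000 reads, Mmp2, Mmp14 and Timp2 were read together in 17.6% of control 1 BECs (95% Wilson interval 12.5 to 24.3) and 11.5% of control 2 BECs (7.38 to 17.4). The mutants lay between 40.8% (33.8 to 48.2) and 78.1% (71.6 to 83.5). The intervals, which cover counting error only, did not overlap between the groups. In LECs the 3 genes were read together in 32.8% and 39.4% of control cells and between 59.9% and 92.4% of mutant cells. The product of the 3 single-gene shares was close to this in LECs, at 34.9% and 40.7% in controls and between 55.8% and 91.7% in mutants. In BECs the product was 17.5% and 7.93% in controls and between 32.9% and 77.0% in mutants. Without thinning 35 of 40 group shares of members moved by more than the SD between mice, since deeper cells show more genes.

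In RNA terms, the balance of the 3 listed TIMPs to the listed proteases was lower in mutants, with Reck and Timp4 left out. The summed FPKM of Timp1, Timp2 and Timp3 was 2.22 and 1.22 times that of the 6 MMPs in control BECs, and between 0.428 and 0.569 times in mutant BECs. In LECs the ratio was 5.82 and 2.80 in the controls and between 1.33 and 2.47 in the mutants. Mutants and controls did not overlap in either class, and no test was run on these sums. They include the marker-positive cells, and no ratio was taken below the marker limit. Timp4, whose levels are given below with the wider family, was read in both kinds of EC. No ratio was taken with Timp4 or the other MMPs, so these values are not a balance of the whole family. Mmp2 and Mmp14 together gave between 92.2% and 97.0% of the MMP sum in mutant BECs. In control BECs they gave 76.1% and 64.5%.

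The difference between the genotypes was larger for Mmp2 in BECs than in LECs. The interaction of genotype and class gave a log2 difference of -1.77 ± 0.22 (SE) for LECs against BECs, with an edgeR adjusted p of 0.0427. It was the only member of 9 tested to pass, where 0.187% of all genes were called. In cells below the limit on other markers the difference was -4.60 ± 0.44 (SE; edgeR adjusted p = 0.00781). The call was lost without any one mouse except mutant 5, at adjusted p between 0.0737 and 0.125, while the log2 difference stayed between -1.91 and -1.65. The Mmp2 call was also lost without cycling cells. Timp2 and Timp1 had log2 differences of -0.61 and -1.17 in the same direction that did not pass the test (edgeR adjusted p of 0.136 and 0.206).

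LECs and BECs of the same mice also differed in which members they carried. Mmp14, Timp2 and Timp3 were higher in LECs in all 7 mice. Mmp15, a membrane-anchored relative of Mmp14, was higher in BECs in all 7, at 64.8 and 142 CPM in control BECs and between 50.1 and 149.5 CPM in mutant BECs. LECs of the same mice held 4.37 and 10.9 CPM in the controls and between 5.18 and 16.8 CPM in the mutants, and the log2 fold change of LECs against BECs was -3.73 ± 0.16 (SE; edgeR adjusted p = 1.47e-06). At least 100 CPM of Mmp15 was reached by at most 3.80% of LECs and at least 13.2% of BECs of a mouse.

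Timp2 was 2.62-fold and Timp3 2.52-fold higher in LECs (log2 1.39 ± 0.11 and 1.34 ± 0.10, SE; edgeR adjusted p of 2.69e-05 and 1.58e-05). Timp3 ranged from 1736 to 3859.9 CPM in LECs and from 723 to 1428 CPM in BECs. Its gene, at 86300372 to 86349506 on chromosome 10, lies inside Syn3 on the other strand, and 21.3% of its exon bases are shared with Syn3 exons, so that unstranded reads there cannot be assigned to one gene. Mmp14 was 2.31-fold higher in LECs (log2 1.21 ± 0.10, SE; edgeR adjusted p = 3.19e-05).

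Mmp2 was called lower in LECs over the 7 mice, at a log2 fold change of -1.08 ± 0.29 (SE; edgeR adjusted p = 0.0232), but the mice did not move together. Over all cells, both controls had slightly more Mmp2 in LECs, and all 5 mutants had more in BECs. Below the marker limit the controls differed more, with 131 and 202 CPM in LECs against 8.92 and 46.2 CPM in BECs. As few as 12 cells lay behind a control BEC value there. Mutants below the limit held 339 to 627 CPM in LECs and 1461 to 1766 CPM in BECs. Among mutant mice alone the log2 fold change was -1.59 ± 0.12 (SE; edgeR adjusted p = 0.00014), and without the marker-positive cells it was -0.79 ± 0.75 (SE; edgeR adjusted p = 0.601). It was also lost without any one of the mutant mice, at adjusted p between 0.0528 and 0.0648. In all, 5 of the 9 members tested were called between LECs and BECs, where 26.4% of all genes were called. A single direction in every mouse held for 4 of 9 members and for 24.8% of all genes, and the median log2 fold change was 0.42 over the members and 0.02 over all genes.

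Ptx3-high LECs, defined by at least 100 CPM of Ptx3, a secreted pattern-recognition protein, held more Mmp2 and Mmp14 than other LECs of the same mouse. They numbered 12 of 183 and 44 of 175 LECs in controls 1 and 2. In mutants 1 to 5 they numbered 62 of 184, 62 of 187, 126 of 363, 76 of 182 and 162 of 367. The part of this mix in the whole-LEC differences between genotypes was not tested. Mmp2 in Ptx3-high LECs stood at 524 and 387 CPM in the controls and at 673, 732, 953, 725 and 789.9 CPM in the mutants. In the other LECs it stood at 206 and 166 CPM in the controls and at 367, 216, 354, 272 and 469 CPM in the mutants. Ptx3-high cells were the higher in 7 of 7 mice, and the log2 fold change was 1.26 ± 0.12 (SE; edgeR adjusted p = 0.00269).

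Mmp14 was higher in Ptx3-high LECs in 7 of 7 mice as well, at 557 and 448 CPM in the controls and between 789 and 976 CPM in the mutants, against 194 and 313 CPM and between 394 and 722 CPM in the other LECs. Its log2 fold change was 0.88 ± 0.12 (SE; edgeR adjusted p = 0.00644). Timp3 moved the other way in all 7 mice, at a log2 fold change of -0.32 ± 0.06 (SE; edgeR adjusted p = 0.0259), and this call was lost without any one of the mutants, at adjusted p between 0.078 and 0.11. For Timp2, higher in Ptx3-high LECs in 7 of 7 mice, the log2 difference of 0.23 ± 0.05 (SE) had an edgeR adjusted p of 0.0502. So 3 of 8 members tested were called, beside 2.72% of all genes, and 4 of 8 kept a single direction in every mouse, beside 8.55% of all genes. Their median log2 fold change was 0.45, against -0.08 over all genes.

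Within Ptx3-high LECs the genotypes differed in Mmp14, at 885 ± 90.1 CPM in mutants (SD, n = 5) and a log2 fold change of 0.85 ± 0.16 (SE; edgeR adjusted p = 0.0259). Mmp2 in the same cells had a log2 difference of 0.79 ± 0.19 (SE; edgeR adjusted p = 0.054). The Mmp14 call was lost without mutant 1, 3, 4 or 5, at adjusted p between 0.0543 and 0.0682, and also without cycling cells. This was 1 of 8 members called, beside 5.03% of all genes. Fibroblast markers summed to 296 and 822 CPM in control and between 9.82 and 148 CPM in mutant Ptx3-high LECs, while below the marker limit Mmp14 stood at 469 and 567 CPM in controls (20 and 3 cells) and between 634 and 922 CPM in mutants. Control 1, with 3 cells, was left out of the fit there, which gave Mmp14 a log2 difference of 0.83 ± 0.23 (SE; edgeR adjusted p = 0.071) and Mmp2 1.23 ± 0.24 (SE; edgeR adjusted p = 0.0305) against 1 control. In a comparison added after the data were seen, for Mmp2 the genotype difference in Ptx3-high LECs minus that in other LECs was -0.0021 ± 0.26 on the log2 scale (SE; edgeR adjusted p = 1). By edgeR and by DESeq2 0 members passed that interaction, with 0 at an unadjusted p under 0.05, and 0.0202% of all genes were called. edgeR called 4 genes, with 2420 genes at an unadjusted p under 0.05 and 1344 genes called by DESeq2.

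Apln-high BECs were those with at least 50 CPM of the sprouting marker Apln. They numbered 16 of 159 and 26 of 157 BECs in controls 1 and 2. In mutants 1 to 5 they numbered 89 of 183, 97 of 184, 185 of 330, 76 of 174 and 142 of 303. The part of this mix in the whole-BEC differences between genotypes was not tested. Mmp2 in Apln-high BECs stood at 149 and 104 CPM in the controls and at 2592, 2244, 2373, 2220.1 and 2059.6 CPM in the mutants. The other BECs held 225 and 199 CPM in the controls and 725, 405, 336, 375 and 617 CPM in the mutants. Over all BECs, Apln-high cells thus had more Mmp2 in every mutant and less in both controls. Over all 7 mice the log2 difference was 1.50 ± 0.50 (SE) and did not pass the test (edgeR adjusted p = 0.214). Below the marker limit the direction in control 2 turned, with 114 CPM in 5 Apln-high BECs and 36.7 CPM in the others, and control 1 had no Apln-high cell. Mmp2 was called higher there over the 6 mice left, at a log2 fold change of 2.00 ± 0.16 (SE; edgeR adjusted p = 0.00821).

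**Figure D2:**
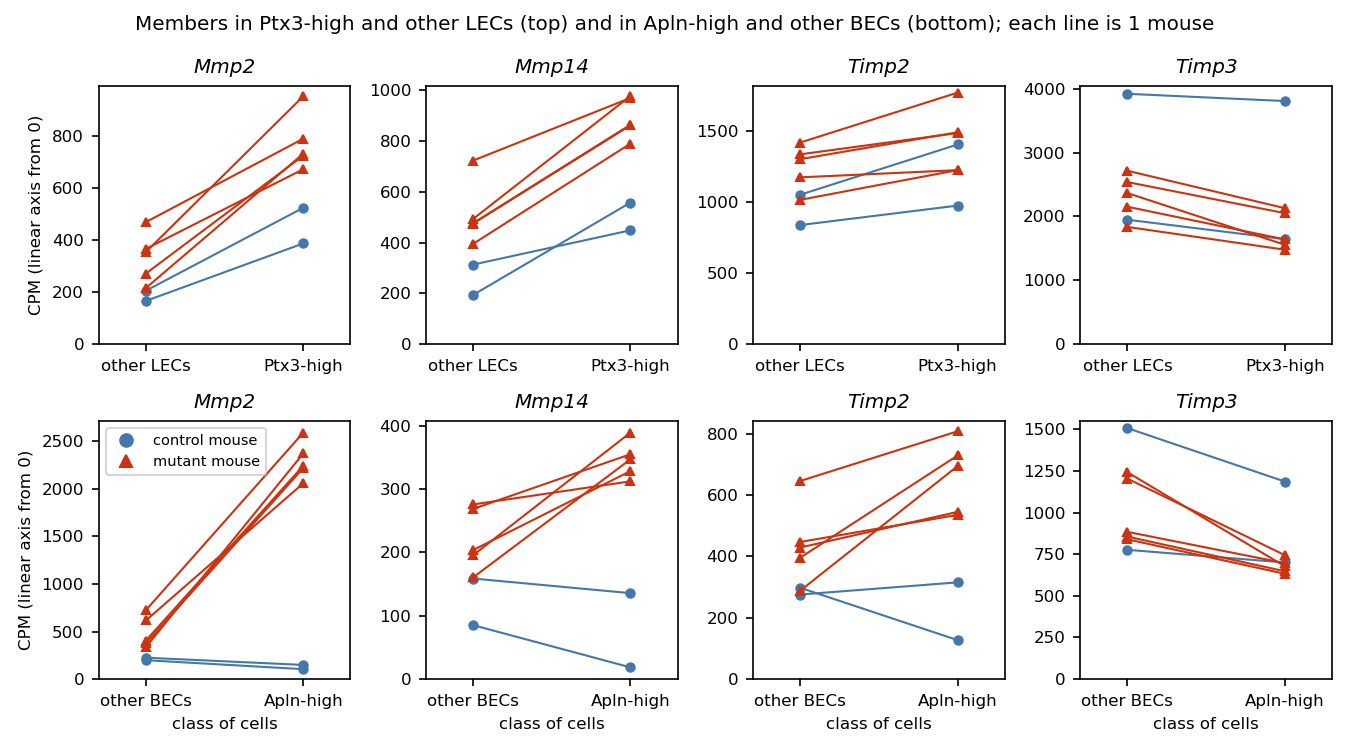
CPM per mouse (linear axis) of Mmp2, Mmp14, Timp2 and Timp3 in Ptx3-high and other LECs (top) and in Apln-high and other BECs (bottom); each line joins the 2 classes of 1 mouse, circles for control and triangles for mutant mice. Mmp2 rises from other to Apln-high BECs in the 5 mutants and falls in the 2 controls.

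Between genotypes, Mmp2 in Apln-high BECs had a log2 fold change of 4.23 ± 0.20 (SE; edgeR adjusted p = 6.14e-05), and it was called under all 19 alternatives, 3 of which compared the mutants with a single control mouse. Timp2 was called too, with 316 and 127 CPM in the controls and between 536 and 809 CPM in the mutants (log2 1.64 ± 0.35, SE; edgeR adjusted p = 0.0335), but not without mutant 1, 2, 3 or 4 (adjusted p between 0.0666 and 0.0798). Mmp14 stood at 18.5 and 136 CPM in the controls and between 312 and 389 CPM in the mutants, without overlap, at a log2 difference of 2.19 ± 0.64 (SE; edgeR adjusted p = 0.0796). The share of all genes without overlap was not counted in Apln-high BECs. In all, 2 of 9 members were called, beside 5.83% of all genes. Fibroblast markers summed to at least 153 CPM in control and at most 20.1 CPM in mutant Apln-high BECs.

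The genotype difference in Mmp2 was larger in Apln-high than in other BECs, by 3.12 ± 0.31 on the log2 scale (SE; edgeR adjusted p = 0.0256), in a comparison added after the data were seen. It was the only member of 9 tested to pass, where 0.246% of all genes were called. Below the limit on other cell types' markers this changed. There the other BECs of the controls held 8.92 and 36.7 CPM of Mmp2, only 5 Apln-high cells of control 2 and none of control 1 remained, and the log2 difference was 0.52 ± 0.38 (SE; edgeR adjusted p = 0.48). The call was also lost without mutant 1, 2 or 4, at adjusted p between 0.0525 and 0.0737.

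Timp3 was lower in Apln-high than in other BECs in 7 of 7 mice, with a log2 fold change of -0.46 ± 0.09 (SE; edgeR adjusted p = 0.044). That call was lost without control 1 or any one of the mutants, at adjusted p between 0.0597 and 0.132, and without marker-positive cells (log2 -0.44, adjusted p = 0.411). Mural and fibroblast markers were also lower in Apln-high than in other BECs in 7 of 7 mice. Mural markers summed to 424 and 624 CPM in control and between 108 and 160 CPM in mutant Apln-high BECs, against 555 and 999.7 CPM and between 227 and 565 CPM in the other BECs. Timp1 was higher in 7 of 7 mice at a log2 difference of 1.16 ± 0.34 (SE) that did not pass (edgeR adjusted p = 0.149). Mmp3 was called lower, at a log2 fold change of -4.36 ± 0.67 (SE; edgeR adjusted p = 0.0241), on levels between 0 and 2.22 CPM in Apln-high BECs and between 0 and 50.4 CPM in the others, with mutants 2 and 5 at 0 in both. It was lost without mutant 1 (adjusted p = 0.0719) or mutant 3 (0.115). In all, 2 of 9 members were called, both lower, beside 1.59% of all genes. Only Timp1 and Timp3 kept a single direction in every mouse, beside 6.09% of all genes, and the median log2 fold change was -0.19 over the members and -0.04 over all genes.

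Mmp3 and Mmp9 were hardly read in either kind of EC. Mmp3, a stromelysin made by activated fibroblasts and keratinocytes, had between 0 and 1477 reads per mouse in BECs, and in the mice with over 300 of them at least 92.7% came from 5 cells. The cell with the most Mmp3 reads carried 24001 and 31623 CPM of fibroblast markers in the BECs of controls 1 and 2. In the BECs of mutants 3 and 4 it carried 25928 and 16854 CPM of keratinocyte markers. In BECs below the marker limit Mmp3 stood at no more than 0.291 CPM in any mouse.

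Mmp9, gelatinase B, a gene best known in neutrophils and macrophages, had 0 to 5 reads per mouse in LECs. In BECs it had 0 to 2 reads except in mutant 5, where 171 of 172 reads came from 1 cell, in which the summed immune markers were at 0. Before thinning, 5 of 183 LECs of control 1 had a Mmp9 read (2.73%), and at most 2 cells did in any other mouse and class. Mmp9 did not pass the filter on low values in any comparison.

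Reck and Mmp11 were low throughout and passed the edgeR test in none of the 10 comparisons. Reck stood between 11.4 and 43.5 CPM in LECs and between 12.4 and 23.2 CPM in BECs, and Mmp11 between 11.5 and 36.5 CPM in LECs. Of the Mmp11 exon bases 5.58% are shared with Chchd10 on the other strand.

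The wider family and its partners were counted as well. Apart from counts by DESeq2, the alternative fits were not read for these genes. Their calls were thus not checked without marker-positive cells, without cycling cells or with a mouse left out. Of 18 other MMP and TIMP genes, 8 were tested in LECs and 9 in BECs. Between genotypes edgeR called 0 in either class, beside 2.76% and 2.12% of all genes, with 1 and 2 at an unadjusted p under 0.05. DESeq2 called 1 and 2. With so few genes tested, 0 calls are not a result about the family. Within Apln-high BECs edgeR called 2 of 8 between genotypes, and within Ptx3-high LECs 1 of 8, beside 5.83% and 5.03% of all genes. Timp4, an inhibitor with a narrow tissue range, stood at 302 ± 215 CPM in BECs and 67.1 ± 34.7 CPM in LECs (SD, n = 7) and was lower in LECs (log2 -2.02, edgeR adjusted p = 0.00206). It was also lower in Ptx3-high than in other LECs (log2 -2.11, edgeR adjusted p = 0.0473), in Apln-high than in other BECs (log2 -1.73, edgeR adjusted p = 0.0314), and in mutant than in control Apln-high BECs (log2 -2.35, edgeR adjusted p = 0.0366) and Ptx3-high LECs (log2 -3.10, edgeR adjusted p = 0.0408).

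Between LECs and BECs, Mmp17, a GPI-anchored protease, was higher in LECs (log2 2.46, edgeR adjusted p = 0.0227) and Mmp28 was lower (log2 -1.03, edgeR adjusted p = 0.0273). Mmp28 was also higher in mutant than in control Apln-high BECs, at 13.5 ± 4.71 (n = 5) against 0.421 ± 0.416 CPM (SD, n = 2; edgeR adjusted p = 0.0274). Of the 14 activators and partners, 8 were called between LECs and BECs, where 26.4% of all genes were. Higher in LECs were Pcsk6, a proprotein convertase, Lcn2, which binds MMP9, the integrin Itgav, the plasminogen activator Plat and the urokinase receptor Plaur. Pcsk6 stood at 360 ± 60.8 CPM in LECs and 21.6 ± 9.96 CPM in BECs (SD, n = 7; log2 4.17, edgeR adjusted p = 7.77e-06). Lower in LECs were the convertases Furin and Pcsk5, and Bsg, an inducer of MMPs.

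Between genotypes the partner called in whole classes was Plau, urokinase, in BECs, 1 of 14 tested, beside 2.12% of all genes. It stood at 64.7 ± 11.2 CPM in mutants (n = 5) and 19.4 ± 5.99 CPM in controls (SD, n = 2), a log2 fold change of 1.74 ± 0.28 (SE; edgeR adjusted p = 0.0209). In LECs edgeR called 0 of 14 partners, beside 2.76% of all genes, with 5 at an unadjusted p under 0.05 and 3 called by DESeq2. Within Ptx3-high LECs, Thbs1 and Lcn2 were lower in mutants (log2 -1.78 and -1.57, edgeR adjusted p of 0.0327 and 0.0192). With 12 and 44 control cells behind them, these calls were not checked with cells or mice left out. Lcn2 was also lower in Ptx3-high than in other LECs, and Pcsk6 higher. Lrp1, a receptor that clears MMPs and TIMPs, was lower in Apln-high BECs at levels of 1.09 ± 1.74 against 12.2 ± 12.9 CPM (SD, n = 7; edgeR adjusted p = 0.0317).

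Among 9114 named genes at a mean log2 CPM of at least 3, those with levels most like Mmp2 over 28 sums of Ptx3-high, other, Apln-high and other cells of the 7 mice were Mxra8 and its antisense neighbour Mxra8os (Pearson r of log2 CPM 0.90 and 0.89), whose reads cannot be told apart without strand. For Mmp14 they were Nfkbie and Dpysl3 (0.94 and 0.93), for Timp2 Emid1 and Fgfr1 (0.96 and 0.95), and for Mmp15 Hspg2, the perlecan gene, and Inka1 (0.93 and 0.92). Timp3 was most like Syn3, with which it shares exon bases (0.99), and Ccdc141 (0.92). Reck (Snx18 and Ccdc137), Timp1 (Mest and Procr) and Mmp11 (Diablo and Ccnj) had no gene above 0.80. The 28 sums share mice and libraries, so these values are descriptions.

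The 2 plates of a mouse gave similar values for the abundant members. Mmp2 in BECs stood at 1407 and 1727 CPM on the plates of mutant 3 and at 1345 and 1428 CPM on those of mutant 5, all far above the controls. Mmp14 in BECs differed more, at 227 and 343 CPM in mutant 3 and at 250 and 360 CPM in mutant 5. In cells of neither class, 50 in controls and 67 in mutants, Mmp2 reached 397 and 1272 CPM in the controls and between 73.4 and 571 CPM in the mutants, with fibroblast markers summing to at least 2722 CPM in the controls and between 173 and 3002 CPM in the mutants.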

How the data were processed

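Single ECs from mouse ear skin were profiled by Smart-Seq2 in 384-well plates. The authors deposited raw read counts per gene and well for each plate. Per the submitters' processing notes these were made with TopHat2 2.1.1, SAMtools 0.1.18 and featureCounts on GRCm38; strand use is not given in the sources used here. Ensembl IDs were matched to symbols for 98.9% of 46517 genes, and 92 spike-ins (0.422% of reads) were left out of library sizes. Cells with at least 50000 reads, 200 genes and at most 10% mitochondrial reads were kept. No doublet caller was run. Counts were summed per mouse and class, plates of 1 mouse together, and tested over all genes that passed filterByExpr with edgeR 4.0.16 (quasi-likelihood, TMM, Benjamini-Hochberg, threshold 0.05), mutant against control by group and classes within mice with the mouse as a block, since both sums come from the same animal (correlations of deviations 0.082 to 0.340). CPM were TMM-scaled over the sums compared, except for cells split by the marker limit (plain CPM). Genes that define a class were dropped from its comparisons. A member not called was counted as unchanged under an alternative unless it became called. The scripts were tested on simulated data. Python 3.11.15 and R 4.3.3 were used.

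All 10 members are named. Other MMPs, TIMPs and partners are named where called, with the 2 genes most like each member. Members and lists were chosen with earlier results of these data known. With 2 control mice, which differ in strain and treatment, p-values measure the spread between these mice. Alternatives were DESeq2 1.42.0, its size factors, no expression filter, other thresholds, thinned cells, stricter classes, cells without other markers or cycling genes, first plates, a replicate block, plate series, and each mouse left out.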

Additional observations from a re-analysis of the deposited data

Results flagged for a closer look

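Among the 5 mutant mice, 4 of 20 groups of a member and a class held a mouse far from the others by Dixon's criterion (chance gives about 1 in 20). Mmp3 in BECs stood at 23.1 CPM in mutant 4 and at no more than 3.86 CPM in the others. Mmp9 in mutant 5 stood at 1.71 CPM in BECs, nearly all from 1 cell, and at 0.0103 CPM in LECs, from 2 reads. Timp1 in LECs stood at 45.7 CPM in mutant 5 and between 29.7 and 33.7 CPM in the others.

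The genotype difference in Mmp2 was itself different between classes in 2 tests of interaction with edgeR. It was -1.77 on the log2 scale for LECs against BECs, and 3.12 for Apln-high against other BECs. The second was 0.52 with an edgeR adjusted p of 0.48 once marker-positive cells were left out, where Apln-high BECs came from 1 control mouse.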

How the results depend on the processing

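Of 20 member results called, none changed direction under any alternative. Mmp14, Mmp15, Timp2 and Timp3 in LECs against BECs and Mmp2 in Ptx3-high LECs and in mutant Apln-high BECs were called under all alternatives run. Of 1523 member values under alternatives, 110 had the opposite sign without being called in either fit, and 2 were called with the opposite sign: Mmp11 in mutant Ptx3-high LECs without control 2 (log2 4.18, with -1.15 the lowest when leaving out other mice) and Reck in the genotype effect in Ptx3-high against other LECs at a Ptx3 limit of 200 CPM (log2 5.23). The cause was not tested. Mmp9 was too low to test, and Mmp3 rested on a few cells.

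Leaving out 1 mouse in turn, the members called were 4 to 6 for LECs against BECs, 0 to 2 for mutant against control LECs, 1 to 2 in BECs, 0 to 1 for the genotype effect in LECs against BECs, 2 to 4 for Ptx3-high against other LECs, 0 to 1 for Apln-high against other BECs, 0 to 3 for genotypes in Ptx3-high LECs, 1 to 5 in Apln-high BECs, 0 to 1 for the genotype effect by Ptx3 class and 0 to 2 by Apln class. In LECs the 0 came without control 1, mutant 3 or mutant 4. In BECs Mmp2 alone remained called without mutant 2 or 3, and Mmp2 was called without each mouse.

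With the replicate number as a block, which pairs only 2 mutants with the controls by a shared number (correlations -0.0468 and 0.0266), 0 members were called in LECs, 0 in BECs and 0 in Ptx3-high LECs, and 1 (Mmp2) in Apln-high BECs; all genes called fell from 546 to 3 in LECs and from 410 to 0 in BECs. Without the mouse block, 1 member was called for Ptx3-high and 0 for Apln-high classes. With plate series as a covariate, 1 member (Mmp2) was called in BECs, 1 in Apln-high BECs and 0 in Ptx3-high LECs.

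Without marker-positive cells, 1 member was called in LECs (Mmp2), 1 in BECs (Mmp2), 1 for Apln-high against other BECs (Mmp2, higher), 5 in Apln-high BECs and 2 in Ptx3-high LECs. The last 2 comparisons had 1 control mouse, with 5 and 20 cells, assumed to vary like the mutants, as had every fit without a control. Without cycling cells the counts were 0 in LECs, 0 in Ptx3-high LECs, 0 for the effect in LECs against BECs and 1 for Apln-high against other BECs. DESeq2 called 4 for Apln-high against other BECs, 4 in Apln-high BECs, 2 in Ptx3-high LECs, 3 for the effect in LECs against BECs and 2 for the effect by Apln class. For Apln-high against other BECs 1 was called with DESeq2 size factors, thinned cells, stricter classes, first plates or a limit of 100 CPM, and 0 at 25 CPM. In Ptx3-high LECs 2 were called without the expression filter or with thinned cells and 3 at a limit of 200 CPM, which gave 1 for the effect by Ptx3 class. First plates gave 0 for the effect in LECs against BECs.

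Over all genes the counts moved further, in LECs from 546 to 2472 with DESeq2, in BECs from 410 to 2238, for the effect in LECs against BECs from 41 to 1242, for Ptx3-high from 429 to between 130 and 1732, for Apln-high from 246 to between 53 and 1334, in Ptx3-high LECs from 843 to between 24 and 4338, in Apln-high BECs from 986 to between 4 and 4875, by Ptx3 class from 4 to between 1 and 1950, by Apln class from 48 to between 2 and 2098, and for LECs against BECs from 4640 to 2162 without marker-positive cells.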
